A study of Mus musculus with 2 samples.

Results

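The 5' untranslated region (5' UTR) peaks described here are H3K36me2 peaks that the authors' annotation places on a 5' UTR exon and not at a promoter, where the promoter extends 3 kb upstream and downstream of the nearest transcription start site (TSS). They were taken as every peak whose annotation is exactly 5' UTR. There were 698 among 19976 peaks in the Nsd2 fl/fl library and 686 among 23518 in the Nsd2 ΔIE library, so 1384 of 43494 in all. The material was colon from C57BL/6J male mice fed a high-fat cholesterol diet (HFCD), for 18 weeks by the methods and 16 weeks by the deposited design text, starting at 7 to 8 weeks of age. Both genotypes carry the floxed Nsd2 alleles. In Nsd2 ΔIE mice a Villin-driven Cre removes the gene in the intestinal epithelium, and every other cell of the colon wall keeps it. The sources do not say whether tissue of several mice was pooled. Each genotype is 1 library, so no difference between genotypes has a replicate check, no test was made, and 95% Wilson intervals of shares and order-statistic intervals of medians describe nothing beyond the peaks counted in that list. In bulk tissue, fewer cells of a type and less of the mark per cell cannot be told apart. In what follows, fl/fl and ΔIE stand for these libraries.

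H3K36me2 is laid down by methyltransferases such as NSD2 and NSD1 and is known to spread in broad stretches over gene bodies and the space between genes. In CUT&Tag, a transposase tethered to an antibody on the mark cuts and tags the DNA around it. A 5' UTR is the transcribed stretch ahead of the start codon. Many genes split it over several exons, so that a 5' UTR exon can lie far downstream of the first base transcribed, behind a long first intron or beside a second promoter.

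The gene given to a peak is the one whose TSS is nearest, and this is not always the gene that owns the 5' UTR. Of the 698 fl/fl peaks, 438 touched the protein-coding transcript they were assigned to, and of the 686 ΔIE peaks, 444 did. For 129 and 114 of the others, a coding transcript of a different gene named in the lists lay under the peak. Short RNA genes inside such hosts are the clearest case. The assigned gene was a microRNA gene in 13 fl/fl and 17 ΔIE peaks, from 22 microRNA genes, of which 5 had such a peak in both lists and 4 had peaks that overlapped. The mature microRNAs of these 4 genes are shown to identify them, from the RefSeq table of GRCm38.p6, with the seed (bases 2 to 8) in capitals. They are the products of the nearest gene, not the DNA under the peak, and no seed is shared among them.
mmu-miR-139-5p: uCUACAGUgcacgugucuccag
mmu-miR-139-3p: uGGAGACGcggcccuguuggag
mmu-miR-455-5p: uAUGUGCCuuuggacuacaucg
mmu-miR-455-3p: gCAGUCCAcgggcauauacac
mmu-miR-6901-5p: uGCAGGAAugcagaggaccu
mmu-miR-6901-3p: gACCUUCUguguucuugcag
mmu-miR-6921-5p: uGAGGGGCaugagguaggaagc
mmu-miR-6921-3p: uGACUACUccuugccucucag

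The Mir455 peaks lay in Col27a1, which encodes a fibrillar collagen chain, and the gene had 2 peaks of the class in each list, summing to 12353 bp in fl/fl and 12712 bp in ΔIE. The Mir139 peaks lay in Pde2a, a cyclic nucleotide phosphodiesterase gene, and measured 5971 bp and 2606 bp. Those of Mir6901 lay in Sned1 and measured 5688 bp and 3893 bp, and those of Mir6921, under which no listed coding transcript lay, measured 12526 bp and 5054 bp. Where a gene is named below, it is the assigned gene, and a different host is given.

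The share of 5' UTR peaks was 3.49% (3.25% to 3.76%) of the fl/fl list and 2.92% (2.71% to 3.14%) of the ΔIE list. They were assigned to 656 and 651 genes, 1121 genes in either list and 186 in both, which is 28.4% of the first set and 28.6% of the second. All lay on autosomes. The X chromosome held only 1 and 5 peaks of any class, and none of them was a member. Chromosomes 7, 11 and 2 held the most members, 71, 68 and 62 in fl/fl and 69, 62 and 63 in ΔIE. In 37 genes of the fl/fl list and 33 of the ΔIE list there were at least 2 such peaks, and no gene had more than 3.

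Most of the 5' UTR peaks lay downstream of the assigned TSS, 534 of 698 (76.5%) and 528 of 686 (77.0%). The median distance from the TSS to the nearest edge of the peak was 8990 bp (8161 to 9708) in fl/fl and 8626.5 bp (7810 to 9603) in ΔIE, intervals that overlap. In the class of later exons, the same medians were 14466 bp and 13694 bp. Just outside the 3 kb limit lay Itpa at 3015 bp in fl/fl and Psma7, a proteasome subunit gene, at 3002 bp in ΔIE. The farthest were assigned to 4930583P06Rik, 177694 bp upstream and over Sema6d, in fl/fl and to Rbfox1, a splicing factor gene, at 287405 bp downstream in ΔIE. Of the peaks that lay downstream and touched the assigned transcript, 465 in each list, the median began 26.0% and 30.2% of the way along it. The assigned transcripts were longer than those of all peaks, with a median of 27859.5 bp against 13944 bp in fl/fl. In ΔIE the medians were 25841.5 bp and 13512 bp. First-intron peaks had still longer ones, with medians of 61908 bp and 58681 bp, and later-exon peaks shorter ones, 17504 bp and 16815 bp. A member also tended to have company: 49.0% of the fl/fl members and 50.7% of the ΔIE members had another peak of their own list within 10 kb, against 42.2% and 45.0% of all peaks.

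The median width was 4865.5 bp in fl/fl and 3542.5 bp in ΔIE. All peaks of these lists had medians of 4643 bp and 3426 bp, so the members followed their own list. Summed signal, the deposited coverage added up over a peak, started at 21783 in the fl/fl list and 16571 in the ΔIE list, and the part of these different floors in the difference of widths was not tested. Divided by width, the signal of the members had a median of 6.27 per bp in fl/fl, where all peaks had 6.14, and 6.42 per bp in ΔIE, where all peaks had 6.32. The values carry no stated scaling to depth and are not compared between the lists.

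Of the 698 fl/fl members, 427 (61.2%) overlapped no peak of the ΔIE list, against 65.9% of all fl/fl peaks. Of the 686 ΔIE members, 421 (61.4%) overlapped no fl/fl peak, against 69.3% of all ΔIE peaks. An overlap of 1 bp was enough to count. Turned round, 38.8% (35.3% to 42.5%) and 38.6% (35.1% to 42.3%) had a counterpart. Peaks within 1 kb of a TSS had one in 41.9% and 38.8% of cases, first-intron peaks in 28.1% and 26.4%, and intergenic peaks in 21.8% and 18.3%. Promoter peaks 1 to 3 kb from a TSS had one in 38.5% and 37.5%, close to the members. Later-exon peaks had one in 37.9% and 35.8%, and 3' UTR peaks had the highest share, 45.2% and 41.6%. The members lay between these classes and above the introns. When the overlap had to reach 50% of both peaks, 84.1% of the fl/fl members lacked a counterpart against 84.2% of all peaks, so the difference from all peaks was not seen. In ΔIE the same shares were 83.5% and 86.6%.

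**Figure D1:**
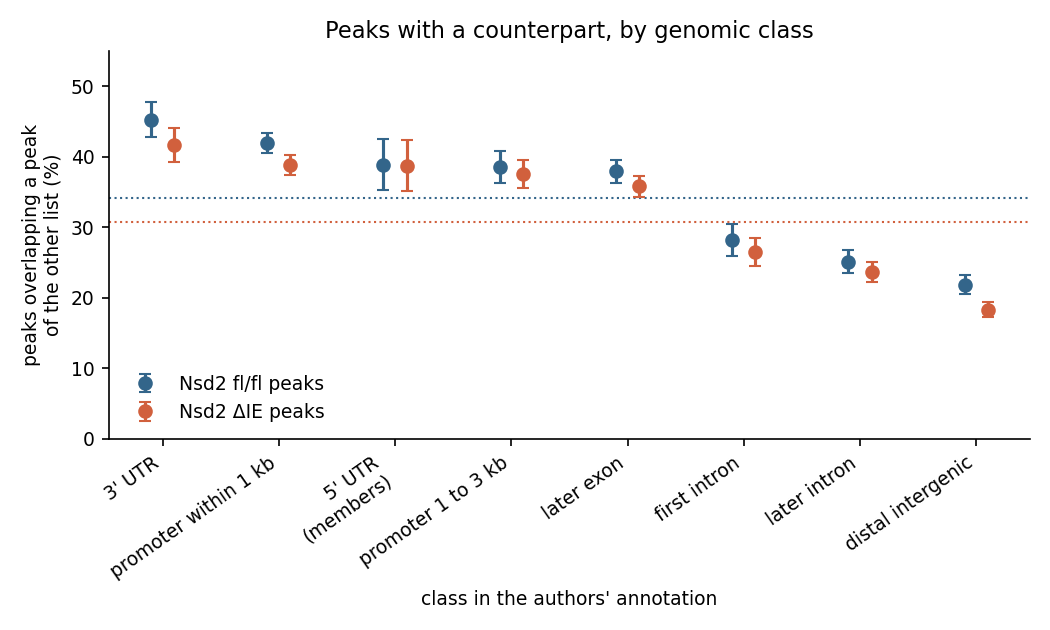
Percentage of peaks that overlap a peak of the other list by at least 1 bp, for each class of the authors' annotation in fl/fl (blue) and ΔIE (orange), with 95% Wilson intervals and a dotted line at the share of each whole list. The 5' UTR peaks, at 38.8% and 38.6%, lie above both lines and near the promoter classes.

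Members with a counterpart were wider than those without, with medians of 5367 bp (5101 to 5736) and 4633 bp (4491 to 4796) in fl/fl and 3816 bp (3626 to 4138) and 3388 bp (3300 to 3493) in ΔIE. With each list split at its width quartiles, 121 of the 220 widest fl/fl members (5709 bp and above) had a counterpart, with an interval of 48.4% to 61.4%, against 50.2% of all peaks in that range. Of the 216 widest ΔIE members (4186 bp and above) 52.8% had one, against 43.0%. Between 3914 bp and 4639 bp in fl/fl the order was turned, 24.1% against 28.4%, and that interval, 17.7% to 31.9%, took in both values.

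The share with a counterpart was lower at greater distance from the TSS. In fl/fl it was 47.9% of the 165 members at 3 to 5 kb, 41.8% of 220 at 5 to 10 kb, 35.7% of 185 at 10 to 20 kb, 30 of 107 at 20 to 50 kb and 19.0% of 21 beyond 50 kb. In ΔIE the same steps gave 45.5% of 154, 44.4% of 223, 34.4% of 180, 31.6% of 98 and 9.68% of 31. The order of the steps was the same in both lists, which share every overlap and are not independent of each other. Median widths of the steps lay between 4663 bp, at 3 to 5 kb, and 5533 bp, beyond 50 kb, in fl/fl and between 3486.5 bp and 3667.5 bp in ΔIE. All peaks over 3 kb from a TSS, the members included, went the same way, from 36.7% to 22.3% in fl/fl and from 34.1% to 17.5% in ΔIE. Beyond 50 kb the members lay below all peaks, with 19.0% against 22.3% in fl/fl and 9.68% against 17.5% in ΔIE. The intervals of these 21 and 31 members took in the shares of all peaks, so the order there is not settled. At 20 to 50 kb in ΔIE the members lay above all peaks, with 31.6% against 26.1%. Later exons, the class outside promoters most like them in share, had 38.9% (34.0% to 44.0%) at 3 to 5 kb in fl/fl. That interval overlaps that of the members. From 10 kb on, later exons lay above the members, with 40.8% at 10 to 20 kb. The members lay above all peaks at 3 to 5 kb, where the intervals of the members, 40.4% to 55.5% and 37.8% to 53.3%, did not reach the intervals of all peaks, 34.3% to 39.3% and 32.0% to 36.3%.

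**Figure D2:**
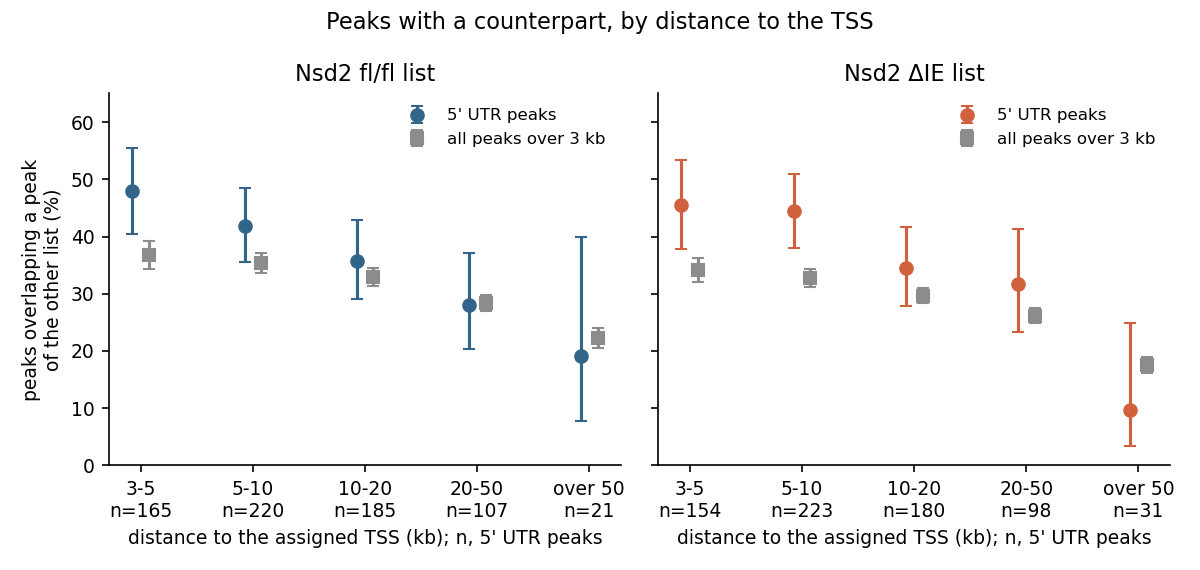
Percentage of peaks that overlap a peak of the other list (vertical axis) by distance to the assigned TSS in kb, for 5' UTR peaks (circles) and all peaks over 3 kb from a TSS (grey squares), with 95% Wilson intervals. In both lists the share of 5' UTR peaks drops from the nearest to the farthest step, from 47.9% to 19.0% in fl/fl and from 45.5% to 9.68% in ΔIE.

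A counterpart did not always carry the same annotation. Of the 271 fl/fl members with one, the peak sharing the most bases was again a 5' UTR peak in 159 (58.7%), a later-exon peak in 31, a later-intron peak in 25, and a promoter peak in 28 (10.3%, 7.25% to 14.5%). Of the 265 ΔIE members with one, it was a 5' UTR peak in 160 (60.4%) and a promoter peak in 54 (20.4%, 16.0% to 25.6%). A peak counts as a promoter peak as soon as any of it comes within 3 kb of a TSS. The 54 ΔIE members had a median width of 3442.5 bp, and their promoter counterparts in fl/fl 6905 bp. The assigned gene was the same in 251 of 271 and 247 of 265 cases. Of the members without a counterpart, 270 in fl/fl and 246 in ΔIE were assigned to a gene that did have a peak elsewhere in the other list, and 157 and 175 to a gene that had none.

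**Figure D3:**
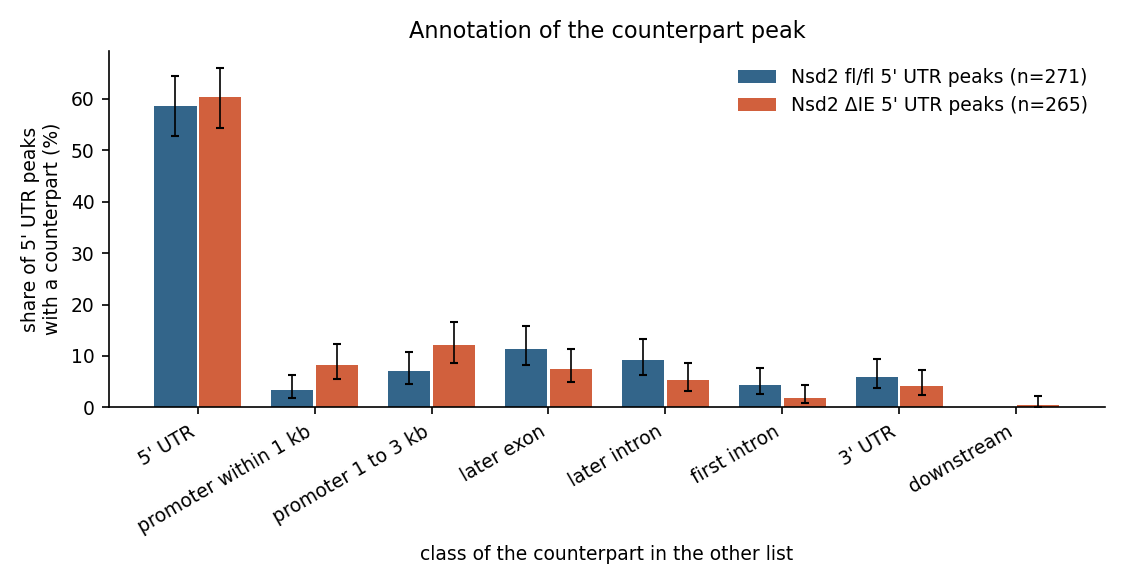
Annotation class of the overlapping peak in the other list, as a percentage of the 271 fl/fl (blue) and 265 ΔIE (orange) 5' UTR peaks that had one; error bars are 95% Wilson intervals. Most counterparts are 5' UTR peaks themselves, and promoter counterparts make up 20.4% for ΔIE members and 10.3% for fl/fl members.

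The lists held 168 overlapping pairs in which both peaks were 5' UTR peaks. The ΔIE peak was the narrower one in 118 pairs and the wider one in 50, with a median log2 ratio of widths, ΔIE over fl/fl, of -0.45 (-0.61 to -0.30). Over all 7465 overlapping pairs of the lists the median was -0.48, so the pairs at 5' UTRs moved as the lists did. Pairs that were promoter peaks in fl/fl and 5' UTR peaks in ΔIE numbered 56, and 53 of them were narrower in ΔIE, with a median of -0.85. The reverse change of class occurred in 31 pairs, 17 of them narrower in ΔIE, with a median of -0.16. Because reaching the 3 kb limit is part of the class, the widths of these changing pairs are partly set by how they were chosen. The point of highest signal lay a median of 1657.5 bp apart in the 168 pairs and 1956 bp apart in all pairs, and it fell within 500 bp in 17.9% and 16.1%.

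**Figure D4:**
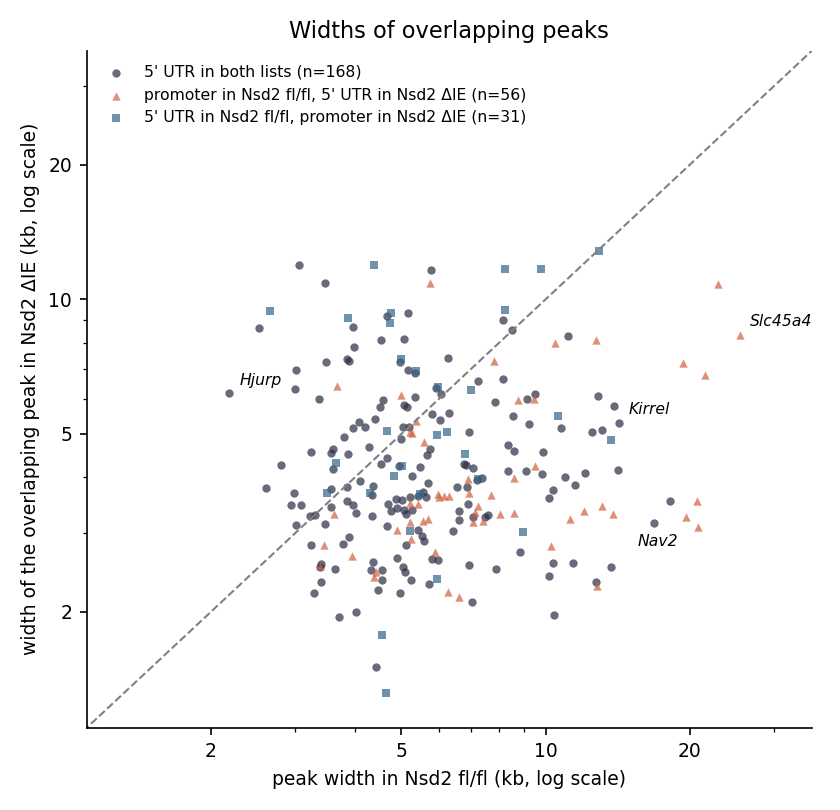
Width of overlapping peaks in fl/fl (horizontal) and ΔIE (vertical), both in kb on log scales, for 168 pairs of 5' UTR peaks (circles), 56 pairs at a promoter in fl/fl and a 5' UTR in ΔIE (triangles) and 31 pairs the other way (squares). The dashed line marks equal width; 118 circles and 53 triangles represent a narrower peak in ΔIE.

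The genes described next are among those with 5' UTR peaks in both lists that had the widest such peak. At Camk2b, the gene of a subunit of calcium/calmodulin-dependent kinase II, the fl/fl peak at chr11:5927133-5945289, in the coordinates of the lists, measured 18157 bp and ranked 35 in its list by summed signal. The ΔIE list held 3 separate peaks over it, of 4534 bp, 3290 bp and 3540 bp, the last of them a 5' UTR peak. A further Camk2b pair, with TSS distances of -24340 bp and -21401 bp, ran the other way, with 3785 bp in fl/fl against 4919 bp. The broad fl/fl peak thus faced several shorter ΔIE peaks, while the upstream pair was wider in ΔIE.

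The overlapping ΔIE peaks were also the narrower ones at Nav2, Chst1, 2900026A02Rik, Arhgef10, Kirrel, Ralgds and Wdr4. Nav2, a cytoskeleton-associated gene, had a peak of 16857 bp at chr7:48838173-48855029 in fl/fl and one of 3155 bp inside it in ΔIE. The 2 further Nav2 peaks of the class in fl/fl, of 4874 bp and 8214 bp, had no counterpart. Chst1, a carbohydrate sulfotransferase gene, went from 13680 bp to 2524 bp, and 2900026A02Rik from 12722 bp to 2329 bp, log2 ratios of -2.44 and -2.45. Arhgef10, a guanine nucleotide exchange factor gene, went from 14136 bp to 4161 bp, Kirrel, which encodes a cell adhesion protein, from 14214 bp to 5301 bp, Ralgds, which activates Ral GTPases, from 13122 bp to 5114 bp, and Wdr4, needed for a methyl mark on tRNA, from 12856 bp to 6073 bp with a further ΔIE peak of 6773 bp, annotated to a 3' UTR, on the same span. Over the whole gene, the covered length of 2900026A02Rik was similar, 15587 bp in 2 fl/fl peaks and 17852 bp in 5 ΔIE peaks, and so was that of Ralgds, 17390 bp and 19471 bp. These genes were taken for their widest peak in either list, which in each case was the fl/fl peak, so the direction follows in part from that choice. The 168 pairs above carry no such choice. Others among the widest fl/fl members were Pitpnm2os1 (17863 bp, over Pitpnm2) and LOC118567880 (17393 bp, over Rbfox3), whose counterparts measured 4388 bp (assigned to Pitpnm2os2) and 4734 bp. Adamts7, a metalloprotease gene, had 15992 bp, over which lay ΔIE peaks of 2395 bp, assigned to Adamts7, and 12781 bp, assigned to LOC118567680. For Septin9, a cytoskeletal GTPase gene, the widths were 14819 bp and 7088 bp.

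In ΔIE the widest member was at Tmem266, 11958 bp at chr9:55314769-55326726. It covered what fl/fl listed as separate peaks, among them a 5' UTR peak of 3058 bp and a later-exon peak of 3478 bp. Tenm4, a teneurin gene, had 11648 bp against 5769 bp in fl/fl. Gak, a kinase of clathrin-coated vesicles, had 11192 bp at chr5:108744969-108756160 with no overlapping fl/fl peak, and the same was true of the peaks of Ncoa3 (10639 bp), a nuclear receptor coactivator gene, Iqank1 (10319 bp) and Sh3glb2 (9119 bp). The strongest ΔIE member was at Hjurp, whose product loads the centromeric histone onto chromatin. It lay at chr1:88195848-88202023 with 14.6 signal per bp over 6176 bp, the highest value per bp among the members of its list. In fl/fl a 5' UTR peak of 2186 bp, also the highest per bp of its list's members, and a later-exon peak of 2949 bp filled the same span. Next to it lay peaks of 53769 bp in the fl/fl list and 53527 bp in the ΔIE list. Whether that signal is H3K36me2 was not tested.

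Among the changes of class, Slc45a4, a solute carrier gene, had an fl/fl promoter peak of 25444 bp that ran from -11010 bp to 14433 bp relative to the TSS. The ΔIE list held an 8339 bp 5' UTR peak over its downstream end, at chr15:73453922-73462260, 6115 bp from the TSS. The 3 ΔIE members that were narrowest beside their counterpart were of this kind: Gm39269, over Zfp469, with 3096 bp against 20781 bp, Lpin1, the gene of a phosphatidate phosphatase, with 3267 bp against 19685 bp, and Man2a2, a Golgi mannosidase gene, with 3536 bp against 20738 bp. Cyp26b1, whose product clears retinoic acid, had 10827 bp in ΔIE against a promoter peak of 22918 bp in fl/fl. None of these genes was without promoter peaks in ΔIE. Those assigned to them covered 5694 bp at Slc45a4, 8201 bp at Gm39269, 3008 bp at Lpin1, 4183 bp at Man2a2 and 3551 bp at Cyp26b1. At Slc45a4, no ΔIE promoter peak lay between -15 kb and 70 kb from the TSS above, so its 5694 bp lay elsewhere. Whether those of the other genes lay at the TSS of the fl/fl peak was not tested. Ern1 had no 5' UTR peak in either list.

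**Figure D5:**
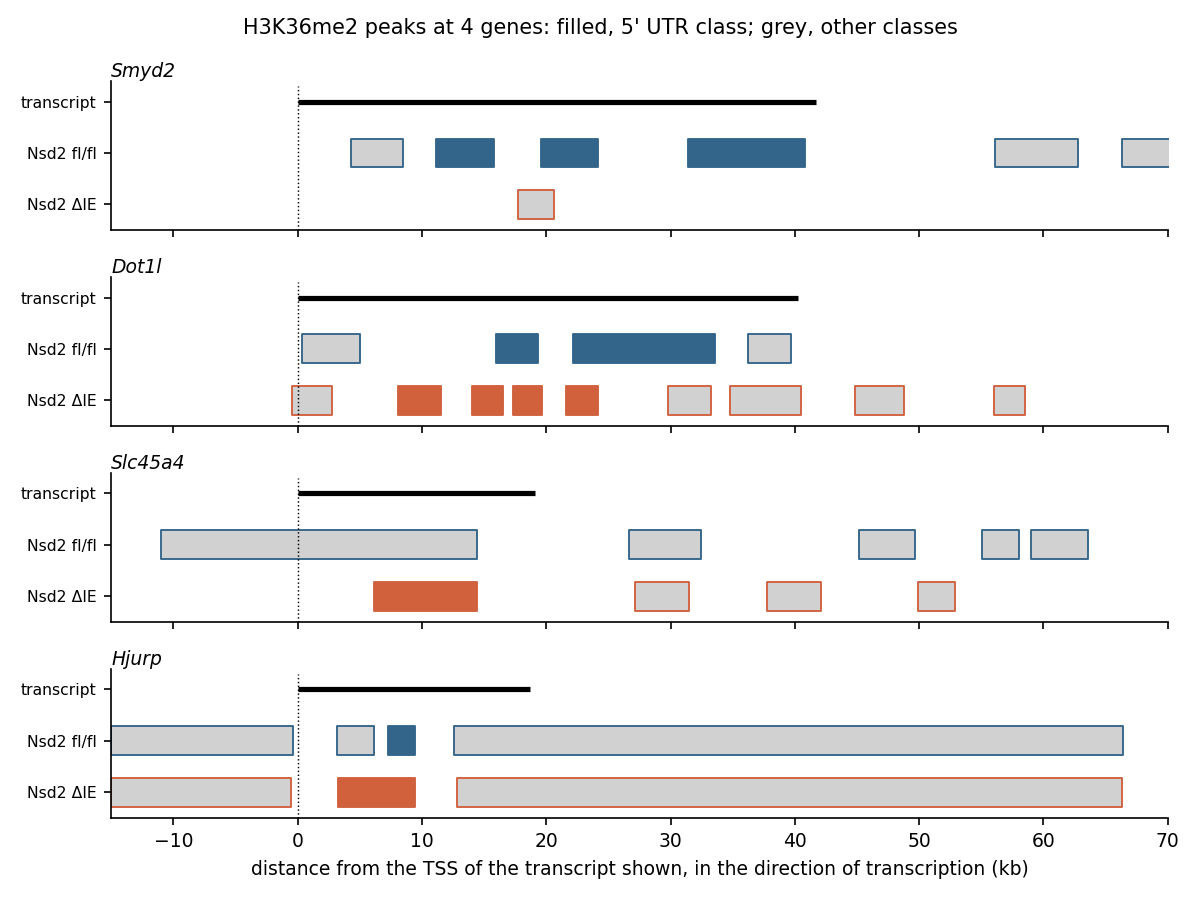
Peaks of both lists around 4 genes, by distance in kb from the TSS of the transcript drawn as a black bar, in the direction of transcription; filled boxes are 5' UTR peaks, also those assigned to a neighbouring gene, grey boxes are peaks of other classes, and boxes at the margins run on. The 3 filled Smyd2 peaks of fl/fl face 1 grey ΔIE peak of 2896 bp, while the Dot1l map has 4 filled ΔIE peaks and 2 filled fl/fl peaks, 1 of each assigned to Plekhj1.

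Genes of H3K36 methylation themselves were listed. Of 14 genes of that list with any peak, 3 had a 5' UTR peak. The interval of that share was 7.57% to 47.6%, against 6.16% of all genes with a peak. It takes in the share of genes with a coding transcript in the lists, 889 of 9287. Each of the 3 was in fl/fl only, as were 470 of the 1121 genes with a 5' UTR peak. Smyd2, a lysine methyltransferase gene, had 3 of them, of 9434 bp, 4557 bp and 4676 bp, within its own transcript between 11107 bp and 40809 bp from the TSS. The only ΔIE peak of Smyd2 was 2896 bp in an intron, overlapping the second of these, and the covered length over the gene was 31348 bp against 2896 bp. Nsd1, which methylates the same residue as NSD2, had a 4422 bp peak at chr13:55390179-55394600, 29887 bp downstream of the TSS, with no counterpart, and the only ΔIE peak of the gene was a promoter peak of 3044 bp. Kdm4b, a histone demethylase gene, had 6180 bp at its 5' UTR, met in ΔIE by a later-exon peak of 2722 bp. Dot1l, which methylates H3K79 and was singled out after its values were seen, went against these, with 1 member of 3395 bp in fl/fl and 3 in ΔIE, of 3467 bp, 2561 bp and 2337 bp. Within the same transcript lay members assigned to the neighbour Plekhj1, and these measured 11438 bp in fl/fl and 2571 bp in ΔIE.

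Over all genes with a peak in either list, 1121 of 18187 (6.16%) had a 5' UTR peak. The share was higher in genes with a coding transcript in the lists, 889 of 9287. The largest gene family among the 1121 was the solute carriers, with 39 of 235 (16.6%), 23 in fl/fl, 20 in ΔIE and 4 in both. By the covered length of the whole gene, 19 of the 39 had less in ΔIE, 8 more and 12 a similar length. Of all genes with a peak, 43.3% had less, 39.7% more and 16.9% a similar length. Of the 1121 genes with a 5' UTR peak, these shares were 45.6%, 27.8% and 26.6%, to which the solute carriers lay closer. Slc22a4, an ergothioneine transporter gene, had 5' UTR peaks of 3933 bp and 5504 bp in fl/fl and no peak in ΔIE. Slc7a1, for cationic amino acids, had a 5' UTR peak of 7136 bp in fl/fl only and went from 22368 bp to 6366 bp over the gene. On the other side, Slc16a1, for lactate and short-chain fatty acids, and Slc51b, a subunit of the basolateral bile acid exporter, were without a fl/fl peak and had ΔIE 5' UTR peaks of 3261 bp and 3364 bp. Slc36a1, for small amino acids, had overlapping 5' UTR peaks of 6272 bp and 5563 bp in the lists.

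The zinc finger genes had 24 of 164 (14.6%), and in these 8 genes had less, 11 more and 5 a similar covered length in ΔIE. More outnumbered less in these 24 genes, while all genes with a peak had 43.3% less and 39.7% more. The 1121 genes with a 5' UTR peak had 45.6% less and 27.8% more. With ratios centred on the median of genes with peaks in both lists, all genes had 37.5% less and 44.0% more. The contrast with all genes thus depends on the scaling and rests on few genes, and it was not tested. Zbtb4 had 8338 bp in 5' UTR peaks in fl/fl against 4138 bp, while Zfp618 had 5015 bp against 7923 bp. Protein tyrosine phosphatases had 6 of 30, of which 2 had less, 2 more and 2 a similar covered length in ΔIE. Ptpn1, a brake on insulin receptor signalling, had 5' UTR peaks of 6163 bp and 5764 bp in fl/fl, and its only ΔIE peak was one of 2565 bp at a later exon, over the second of these. The cadherins and protocadherins had 0 of 29, which allows a share of up to 11.7% by the Wilson interval. The members' assigned transcripts were longer than those of all peaks, and the part of gene length in these shares was not tested.

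Of the genes of lipid metabolism, 7 of 42 had a 5' UTR peak, 6 of them in ΔIE only. Of all 1121 genes with a 5' UTR peak, 465 had it in ΔIE only. Dgat1, which makes triglycerides, had a 4747 bp 5' UTR peak in fl/fl only, although its covered length went from 10099 bp to 15073 bp. Insig2, a sterol sensor of the endoplasmic reticulum, and Elovl7, a fatty acid elongase gene, were without a fl/fl peak and had ΔIE 5' UTR peaks of 3684 bp and 3526 bp. Abcg8, a subunit of a sterol exporter, had a 3328 bp 5' UTR peak in ΔIE although its covered length went from 16949 bp to 6437 bp. Of the nuclear receptors and their coregulators, 5 of 39 had one, among them Ncoa3, described above, Ppargc1a with 5198 bp in fl/fl, and Ppard and Thrb with 1958 bp and 2840 bp in ΔIE. Among cytokine, Toll-like receptor and NF-kB genes the count was 4 of 31. Nfkb1 had 5446 bp and 2376 bp at different places of the gene, Tlr5, the flagellin receptor, 6542 bp in fl/fl, Ripk1 3671 bp in fl/fl and Relb 2495 bp in ΔIE. Of 15 genes of the unfolded protein response, Atf4 with 2447 bp and Edem2 with 4776 bp were assigned one. Both were in ΔIE only, as were 465 of the 1121 genes. The Atf4 peak lay upstream of its assigned transcript, at -4530 bp from the TSS, and so not on a 5' UTR of that transcript.

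The Wnt and Notch list had 3 of 32 (Tcf7, Wnt9b and Wnt11), the MAP kinase list 3 of 40 (Mapk6, Map3k12 and Mapkapk3) and the tight junction and mucus list 1 of 20 (Cldn12, with 4340 bp in fl/fl). None of the 18 intestinal transcription factors with a peak, and none of the 17 Smad and Ski genes, had a 5' UTR peak. Neither did the 7 epithelial, 2 immune and 4 stromal marker genes that had any peak. Peaks of a histone mark give no expression level, so the labelled tissue was not checked here, and how much each cell type of the colon wall gave to a peak was not tested.

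By the length that all peaks of a gene cover, 511 of the 1121 genes (45.6%) had less in ΔIE, counting a log2 ratio below -0.5 or no peak at all, against 43.3% of all genes with a peak. More length was found at 312 (27.8%), against 39.7% of all genes, and a similar length at 298. Centring the ratios on the median of genes with peaks in both lists turned the split into 404 less (36.04%) and 387 more (34.5%), against 37.5% less and 44.0% more of all genes, so it depends on how the lists are scaled to each other. Genes with a 5' UTR peak more often had peaks in both lists, 69.6% against 43.3%. The members' assigned transcripts were longer, and the part of gene length in this was not tested. Among genes with peaks in both lists, the shares lay close to the others, with less in 44.6% of 780 against 41.8% and more in 17.2% against 19.0%. At the 186 genes with a 5' UTR peak in both lists, 76 had less, 33 more and 77 a similar length, and the median log2 ratio of -0.31 was that of all genes with peaks in both, -0.32. In 155 of the 186 the 5' UTR peaks themselves overlapped, and in 31 they lay apart.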

How the data were processed

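The members, gene lists and alternatives were chosen with earlier results of these data known. The authors made CUT&Tag libraries from colon tissue with an H3K36me2 antibody, called peaks in each library and annotated them. The submitters' processing notes name Bowtie2, deepTools, SEACR and ChIPseeker without versions and hg38 as the build, although chromosomes and genes are those of the mouse. Of 22524 transcripts in the lists, a GRCm38.p6 gene table held 18055, 7760 of them with the same length and 135 of these with the same start, so coordinates are given as listed and no peak sequence was read. The deposited signal of a peak is its summed coverage, with no stated scaling. Positions, widths, distances and classes are the authors' values. Read depth is unknown and sets no interval here.

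Counts, shares, medians and overlaps (at least 1 bp) were computed with Python 3.11.15, pandas 2.3.3, numpy 2.4.6 and scipy 1.17.1, tested on simulated data, and the overlaps were checked with bedtools 2.31.1. Lengths of all peaks of a gene were summed, and log2 ratios below -0.5 or above 0.5 counted as less or more. Named genes were the 10 with the widest 5' UTR peak among those with one in both lists, per library the 5 strongest, the 5 widest and the 3 nearest to and farthest from the TSS, the 3 counterparts most different in width in each direction, the genes of the lists, Slc45a4 and Ern1. Not every gene under this rule is described, and some genes and a gene group are not reported here. A check of GC content of promoters was void, since 79.1% of the coding genes with a 5' UTR peak and 78.0% of all coding genes matched the promoter table.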

Additional observations from a re-analysis of the deposited data

How the results depend on the processing

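With 1 library per genotype, a mark that covers broad regions and no depth, the numbers describe these lists only. No paired analysis was possible because there was a single library of each genotype. Of 53 alternative values for 15 results, 34 stayed within the interval of the value (or within 1.5 times a count) and 19 moved. Taking only the strongest 50% of each list left 407 and 406 members in Nsd2 fl/fl and Nsd2 ΔIE, 4.07% and 3.45% of the peaks, with median widths of 5797 bp and 4167 bp and median signals of 6.42 and 6.58 per bp. Among peaks outside promoters only, the members made up 5.15% and 4.04%. A reciprocal overlap of 50% left 84.1% and 83.5% without a counterpart, and counting a peak within 5 kb as a counterpart left 45.0% and 45.6% (50.3% and 54.0% of all peaks). With equal numbers of peaks, the share of Nsd2 fl/fl members without a counterpart was 64.8% (68.9% of all peaks). Measured from the peak centre, the median distance to the TSS was 12070.5 bp and 10616.8 bp. With a log2 limit of 1, 543 genes (48.4%, against 29.8% of all genes) had a similar covered length, and with genes that had peaks in both lists only, 134 (17.2%, against 19.0%) had more. Keeping autosomes only moved none of the results computed that way, but this setting could not test them. All members lay on autosomes, and the setting left almost every other peak in the lists. Its values are among the 34 that stayed, so that count includes values that had no room to move.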
